A study of Mus musculus with 16 samples.

Results

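Glycolysis, the handling of pyruvate and the tricarboxylic acid (TCA) cycle were described here through the mRNAs of 39 enzymes, chosen by gene symbol among the 24060 genes measured. All 39 symbols were found, each as a single gene, in all 16 libraries. They comprised 17 genes of glycolysis and lactate dehydrogenase, 3 genes of the bifunctional enzymes that set fructose-2,6-bisphosphate, 9 genes of pyruvate entry into the TCA cycle and 10 genes of the cycle itself.

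RNA came from the somatosensory cortex of C57BL/6J mice carrying Aldh1l1CreERT2 and RiboTag, 3 months old, which had all been given tamoxifen at 2 months, whether stressed or not. After tamoxifen, cells in which the Aldh1l1 promoter drives Cre make ribosomes that carry Rpl22 with an HA tag, so that the mRNA on astrocyte ribosomes can be pulled down with an antibody against HA. This immunoprecipitate (IP) was sequenced as astrocyte RNA, and the cleared lysate before it (INPUT) as the RNA of all cortical cells, astrocytes included. Stressed mice swam for 20 min and rested for 90 min in the home cage, whereas naïve mice never left it. There were 4 libraries each of naïve IP (replicates 2, 8, 11 and 13), stress IP (4, 5, 6 and 15), naïve INPUT (3, 7, 14 and 16) and stress INPUT (1, 9, 10 and 12). Lists of 4 values below follow this order. Which IP and INPUT libraries came from 1 mouse, and the sex of each, are not in the labels.

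In glycolysis, glucose is phosphorylated by hexokinase, committed to breakdown by phosphofructokinase, split by aldolase and oxidised to pyruvate. Pyruvate is reduced to lactate by lactate dehydrogenase, or enters mitochondria, where pyruvate dehydrogenase makes acetyl-CoA for the TCA cycle and pyruvate carboxylase makes oxaloacetate to refill it. Astrocytes are known for glucose uptake, glycogen storage and lactate release, and pyruvate carboxylase is known as a glial enzyme. Most of these steps have isoenzymes encoded by separate genes, which can be used differently by different cells.

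Between 16392876 and 25814364 reads per library were assigned to genes, and 3 reads correspond to at most 0.183 CPM, the unit used throughout, which scales the read counts of every library to the same total. The 6 astrocyte markers (Aldh1l1, Slc1a2, Slc1a3, Gja1, Gjb6 and Aqp4) were all higher in naïve IP than in naïve INPUT, by 2.87 to 4.13 on the log2 scale, and the 7 neuron markers (Rbfox3, Snap25, Syt1, Slc17a7, Gad1, Gad2 and Nefl) were all lower, by −4.74 to −3.76. The 6 oligodendrocyte and 6 microglial markers were lower in IP as well, with 2.96 CPM of Sox10 and 2.05 CPM of C1qa left in naïve IP. Of the 6 endothelial and mural markers, 5 were lower in IP and Pdgfrb was higher (132 against 25.4 CPM). Without naïve IP replicate 11, 122 of 12495 genes passed the threshold for stress in IP, against 55 of 12501 with it. The count was 101 without stress IP replicate 15 and between 17 and 24 without any other single IP library, so it rested on the libraries included.

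The first comparison asked how the enzymes in astrocyte RNA compared with those of the whole cortex in naïve mice. Of the 39 members, 20 were higher in IP and 12 were lower, and 7 did not pass the threshold (limma on log2(CPM + 0.1), Benjamini-Hochberg adjusted p under 0.05 over 13339 genes). Among all genes tested, 23.7% were on the IP side and 64.0% on the INPUT side. The members' median log2 ratio of IP to INPUT was 0.21, against −0.64 for all genes. Because CPM are shares of a library, every ratio depends on this centre. After rescaling, in which a library is divided by the median of its genes' ratios to their mean over libraries, 32 members were higher and 3 lower, and of 13316 genes tested 5634 were higher and 5580 lower. For naïve mice, a member's rescaled value therefore follows its ratio where the direction or the call changed. Reads on the 39 members made up 2.09% ± 0.0606 of naïve IP and 1.09% ± 0.0520 of naïve INPUT (SD, n = 4 each). A ratio between the fractions also mixes 2 differences, since IP holds RNA on astrocyte ribosomes and INPUT holds total RNA, and these cannot be told apart. Nor can fewer cells of a type be told apart from less RNA per cell.

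The same comparison in stressed mice used 8 other libraries. There, 20 members were higher and 11 lower in IP (all genes, 23.6% higher and 62.5% lower). Of the 39 members, 31 were called in the same direction in both comparisons and 0 in opposite directions, and Pgam1 was called lower in naïve mice only. Most genes measured were called in each comparison. How many of all genes were called alike in both was not counted, so this agreement cannot be called particular to the members. The log2 ratios of a member differed by 0.066 in the median and by 0.36 at most between naïve and stressed mice. Over the 39 genes, which are not independent replicates, Pearson's r between the pair of ratios was 0.996.

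**Figure D1:**
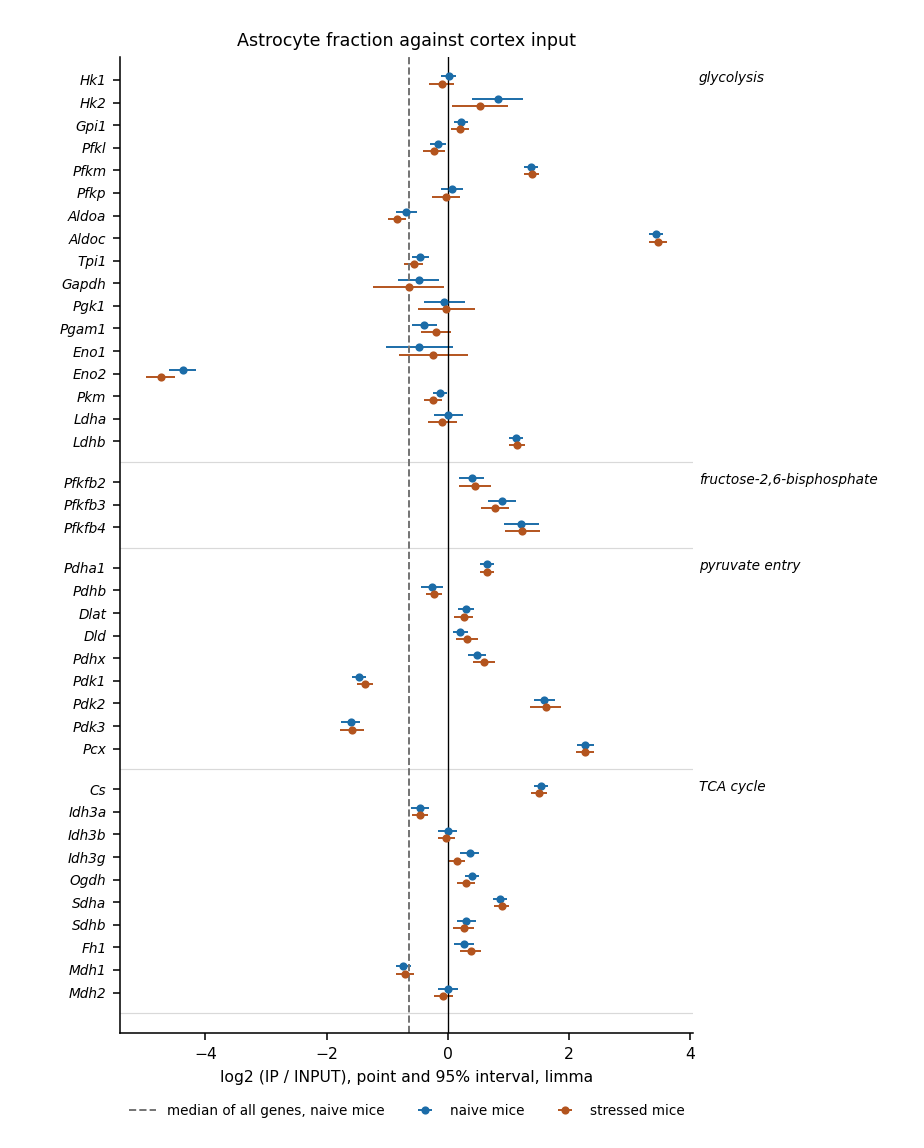
Log2 ratio of IP to INPUT (horizontal axis) for the 39 enzymes, grouped by role, in naïve mice (blue) and stressed mice (brown), with 95% intervals from limma and 4 libraries per group. The dashed line is the median of all genes in naïve mice (−0.64). Aldoc lies farthest to the right at 3.44 and Eno2 farthest to the left at −4.37.

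Hexokinase, which traps glucose in the cell, was represented among the members by Hk1, the form of most brain cells, and Hk2, an inducible form. Hk1 was at 552, 512, 577 and 519 CPM in naïve IP, with 504, 538, 561 and 533 CPM in naïve INPUT, and at 459, 504, 440.1 and 604 CPM in stress IP and 496, 584, 518 and 540.2 CPM in stress INPUT. Values in the 4 groups overlapped, with a log2 ratio of 0.02 in naïve mice (SE 0.055, adjusted p = 0.8, limma), which became 0.66 after rescaling, adjusted p = 8.6e-07. Hk2 was at 6.71, 5.20, 8.19 and 5.81 CPM in naïve IP, 4.52, 4.12, 2.54 and 3.36 CPM in naïve INPUT, 5.98, 4.73, 4.11 and 5.79 CPM in stress IP and 2.50, 4.01, 4.79 and 3.09 CPM in stress INPUT. It was higher in IP in naïve mice by 0.83 on the log2 scale (adjusted p = 0.0012, limma), without overlap. In stressed mice the ratio was 0.53 (adjusted p = 0.032, limma), the fractions overlapped, and the call was lost without stress IP replicate 4 or 15 or stress INPUT replicate 1 or 12 (adjusted p = 0.072 to 0.099, limma). Per kb of exon, Hk1 made up 99.0% ± 0.145 of the Hk1 and Hk2 signal in naïve IP and 99.4% ± 0.162 in naïve INPUT (SD, n = 4 each). Hk2 was thus the minor form of this pair in both fractions. These shares leave out a further gene of this kind, Hkdc1, which was not a member. Hkdc1 averaged 3.67 CPM in naïve IP and 19.7 CPM in naïve INPUT, where Hk2 averaged 6.47 and 3.63 CPM. In naïve INPUT, Hkdc1 was therefore above Hk2 in CPM. Gpi1, glucose-6-phosphate isomerase, was higher in IP by 0.22 (adjusted p = 0.002, limma).

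Phosphofructokinase, the committed step, is built from muscle (Pfkm), platelet (Pfkp) and liver (Pfkl) subunits, of which Pfkm alone was higher in IP on the CPM scale, while all 3 were after rescaling. Pfkm (chromosome 15, 98092589 to 98132447, plus strand, GRCm38) was at 983, 893, 889.9 and 872 CPM in naïve IP, with 339, 339, 374 and 349 CPM in naïve INPUT. It was at 863, 966, 851 and 923 CPM in stress IP and 343, 356, 331 and 346 CPM in stress INPUT. Every IP library lay far above every INPUT library, a 2.60-fold difference in naïve mice (log2 ratio 1.38, SE 0.055, adjusted p = 2.4e-11, limma).
Pfkp was at 437, 376, 331 and 318 CPM in naïve IP, 357, 339, 337 and 349 CPM in naïve INPUT, 405, 396, 279.5 and 310.3 CPM in stress IP and 364, 347, 342 and 355 CPM in stress INPUT. Its IP libraries spread more widely than its INPUT libraries and overlapped them (log2 ratio 0.07, adjusted p = 0.44, limma, and 0.71 after rescaling, adjusted p = 1.6e-06). Pfkl was at 155, 135, 131 and 135 CPM in naïve IP, 165, 149, 154 and 154 CPM in naïve INPUT, 134, 149, 124 and 126 CPM in stress IP and 171, 163, 134 and 160.0 CPM in stress INPUT. Its log2 ratio was −0.16 (adjusted p = 0.023, limma), but 0.48 after rescaling (adjusted p = 2.8e-06, limma), and it did not pass without naïve IP replicate 8, 11 or 13 or naïve INPUT replicate 3 (adjusted p = 0.054 to 0.075, limma). Per kb of exon, Pfkm made up 71.3% ± 1.46 of the phosphofructokinase signal in naïve IP and 48.9% ± 1.64 in naïve INPUT, Pfkp 19.9% ± 1.50 and 33.7% ± 1.10, and Pfkl 8.76% ± 0.225 and 17.5% ± 0.650 (SD, n = 4 each).

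The largest difference between the fractions in favour of IP was in aldolase, which splits fructose-1,6-bisphosphate. Aldoc, the brain form (chromosome 11, 78323073 to 78327781, plus strand, GRCm38), was at 10548, 9915, 9939.8 and 9922 CPM in naïve IP, with 965, 888, 913 and 943 CPM in naïve INPUT. In stressed mice it was at 10040.0, 10653, 10125 and 9866 CPM in IP and 976, 874, 874 and 947 CPM in INPUT. IP was 10.9-fold above INPUT in naïve mice (log2 ratio 3.44, SE 0.055, adjusted p = 8.1e-15, limma), which lies within the range of the 6 astrocyte markers. Aldoc alone held 48.3% ± 0.200 of the reads on the 39 members in naïve IP, against 8.50% ± 0.458 in naïve INPUT (SD, n = 4 each).
Aldoa, the muscle form (chromosome 7, 126795234 to 126800994, minus strand, GRCm38), was at 959, 928, 990.2 and 991 CPM in naïve IP, 1489.7, 1364, 1844 and 1539 CPM in naïve INPUT, 886, 975, 873 and 948 CPM in stress IP and 1623, 1807, 1560.1 and 1579 CPM in stress INPUT. All IP values lay below all INPUT values (log2 ratio −0.68, SE 0.078, adjusted p = 2.0e-06, limma). After rescaling the difference was −0.04 and no longer passed (adjusted p = 0.68, limma). Per kb of exon, Aldoc made up 90.0% ± 0.418 of the pair in naïve IP and 34.1% ± 2.84 in naïve INPUT, or 85.3% ± 0.582 and 25.0% ± 2.35 with the length of 1 transcript per gene (SD, n = 4 each). Aldolase transcripts were thus mostly Aldoc in astrocyte RNA and mostly Aldoa in whole cortex.

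Enolase, which makes phosphoenolpyruvate, gave the largest difference in the other direction. Eno2, the neuronal form (chromosome 6, 124760053 to 124769673, minus strand, GRCm38), was at 48.9, 33.6, 45.1 and 49.3 CPM in naïve IP, with 900.1, 879.8, 979 and 878 CPM in naïve INPUT. It was at 30.9, 33.1, 33.3 and 47.1 CPM in stress IP and 979.7, 985, 889 and 950.2 CPM in stress INPUT. It was 20.7-fold lower in naïve IP (log2 ratio −4.37, SE 0.10, adjusted p = 1.1e-13, limma), inside the range of the 7 neuron markers (−4.74 to −3.76). Eno1, the form known from glia, was at 0.930, 0.627, 0.822 and 1.36 CPM in naïve IP, 1.24, 1.30, 1.45 and 1.17 CPM in naïve INPUT, 0.892, 1.13, 0.776 and 0.884 CPM in stress IP and 1.59, 0.940, 0.959 and 0.993 CPM in stress INPUT. These values overlapped between the fractions (log2 ratio −0.47, adjusted p = 0.1, limma, and 0.12 after rescaling, adjusted p = 0.67).

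Eno1 and 3 further glycolytic genes were low in every library, and their transcripts are repeated elsewhere in the genome. Gapdh is the dehydrogenase of the pathway, Pgk1 makes its first ATP, and Pgam1 moves the phosphate before enolase acts. The authors counted uniquely mapped reads of 69 bases. Of all windows of that length in the main annotated transcript (GENCODE M21, GRCm38), 88.7% in Gapdh were present in another annotated gene, 67.6% in Pgk1, 67.1% in Eno1 and 40.8% in Pgam1. Such windows were found in 134 other genes for Gapdh, 4 for Pgk1, 6 for Eno1 and 2 for Pgam1. The coding stretch of 30 bases shared most widely in each is shown to make this visible, in lower case throughout since all of it is shared, 5′ to 3′ on the coding strand and counted from the first base of the coding sequence.
Gapdh, bases 494 to 523, found in 134 other genes: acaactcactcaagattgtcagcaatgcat
Pgk1, bases 1199 to 1228, found in 6 other genes: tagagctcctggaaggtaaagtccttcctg
Pgam1, bases 480 to 509, found in 4 other genes: tgccagagcactgcccttctggaatgaaga
Eno1, bases 467 to 496, found in 8 other genes: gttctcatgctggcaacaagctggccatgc

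Per kb of transcript, naïve INPUT held 3.79 CPM of Gapdh, 4.59 of Pgk1, 9.79 of Pgam1 and 0.636 of Eno1. The median of the other 35 members was 83.4 CPM per kb. A window shared with another gene was found in 12 of the 39 members, and in these 4 alone for over 40% of the windows. Among the others the share was highest in Pdhb (22.4%), Pkm (18.7%), Ldhb (18.6%) and Gpi1 (11.6%). Levels of Gapdh, Pgk1, Pgam1 and Eno1 are therefore uncertain, and the part of shared sequence in them was not tested. Gapdh was at 2.90 to 3.96 CPM in naïve IP, with 3.81 to 5.65 CPM in naïve INPUT (log2 ratio −0.48, adjusted p = 0.012, limma, and 0.15 after rescaling, adjusted p = 0.38). Pgk1 was at 6.23 to 9.99 and 7.17 to 10.3 CPM, with a log2 ratio of −0.05 (adjusted p = 0.76, limma, and 0.58 after rescaling, adjusted p = 0.0027). Pgam1 was at 11.8 to 15.5 and 16.4 to 17.9 CPM, with a log2 ratio of −0.39 (adjusted p = 0.002, limma, and 0.25 after rescaling).

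**Figure D2:**
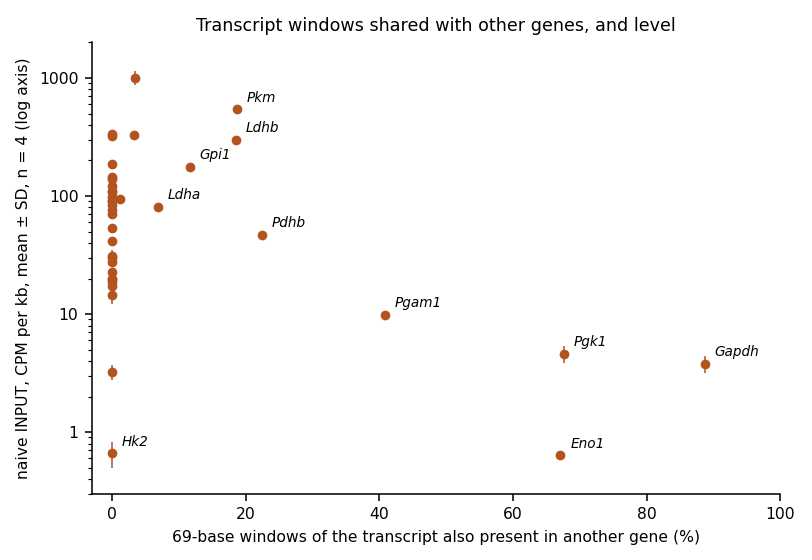
Share of 69-base windows of a member's transcript that occur in another annotated gene (horizontal axis, percent) against its level in naïve INPUT (vertical axis, CPM per kb of transcript, logarithmic, mean ± SD, n = 4), for the 39 members. Gapdh, Pgk1, Eno1 and Pgam1 lie to the right at 40.8% or more and between 0.636 and 9.79 CPM per kb, and Hk2 is as low with no shared window.

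Of the remaining steps to pyruvate, Tpi1, triosephosphate isomerase, had a log2 ratio of −0.45 and Pkm, pyruvate kinase, one of −0.12 (adjusted p = 1.8e-05 and 0.036, limma). After rescaling both lay on the other side, at 0.19 and 0.52, and Pkm did not pass without naïve IP replicate 8, 11 or 13 or naïve INPUT replicate 3 or 14 (adjusted p = 0.056 to 0.085, limma). In lactate dehydrogenase, the subunits Ldha and Ldhb differed. Ldhb, the heart subunit (chromosome 6, 142490249 to 142507957, minus strand, GRCm38), was at 866, 897, 821 and 836 CPM in naïve IP, 381, 373, 403 and 407 CPM in naïve INPUT, 851, 807, 897 and 832 CPM in stress IP and 359, 396, 383 and 396 CPM in stress INPUT. The IP values were all above the INPUT values, 2.19-fold in naïve mice (log2 ratio 1.13, SE 0.051, adjusted p = 9.2e-11, limma). Ldha, the muscle subunit, was at 182, 150.4, 113 and 155 CPM in naïve IP, 148, 138, 150.2 and 150.0 CPM in naïve INPUT, 154, 173, 146 and 115 CPM in stress IP and 172, 149, 141 and 157 CPM in stress INPUT. Its IP values lay on both sides of the INPUT values (log2 ratio 0.01, SE 0.11, adjusted p = 0.93, limma, and 0.65 after rescaling, adjusted p = 3.2e-05). Per kb of exon, Ldhb made up 89.3% ± 1.68 of the pair in naïve IP and 79.5% ± 0.431 in naïve INPUT (SD, n = 4 each). Ldhb was thus the major form in both fractions, and more so in IP.

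Fructose-2,6-bisphosphate is the strongest activator of phosphofructokinase. The 3 member genes of the enzymes that make and break it were higher in IP, beside 23.7% of all genes in naïve mice. A further gene of this kind, Pfkfb1, was too low to be tested, at 0.146 CPM in naïve IP, with 0.319 CPM in naïve INPUT. Pfkfb3, the form with the highest kinase activity, was at 56.9, 57.3, 55.3 and 68.5 CPM in naïve IP, 29.9, 38.1, 26.4 and 34.0 CPM in naïve INPUT, 58.2, 73.2, 62.9 and 66.0 CPM in stress IP and 32.2, 34.6, 43.9 and 41.8 CPM in stress INPUT. Pfkfb4 was at 28.7, 28.7, 20.5 and 28.1 CPM in naïve IP, 12.7, 10.8, 9.23 and 12.5 CPM in naïve INPUT, 27.1, 31.7, 31.8 and 28.2 CPM in stress IP and 14.3, 9.35, 13.0 and 14.3 CPM in stress INPUT. Both had every IP library above every INPUT library, with log2 ratios of 0.90 (SE 0.11) and 1.22 (SE 0.13) in naïve mice (adjusted p = 2.8e-06 and 9.5e-07, limma).
Pfkfb2, the heart form, was at 74.0, 74.0, 56.2 and 71.7 CPM in naïve IP, 55.7, 55.6, 46.4 and 51.0 CPM in naïve INPUT, 73.2, 76.0, 83.7 and 57.8 CPM in stress IP and 57.3, 42.9, 54.1 and 58.1 CPM in stress INPUT. Its difference was the smallest of the 3, at 0.40 (adjusted p = 0.0013, limma), and its fractions overlapped in stressed mice. Naïve IP replicate 11 was the lowest of the naïve IP libraries for Pfkfb2 and Pfkfb4, though still above all naïve INPUT libraries.

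**Figure D3:**
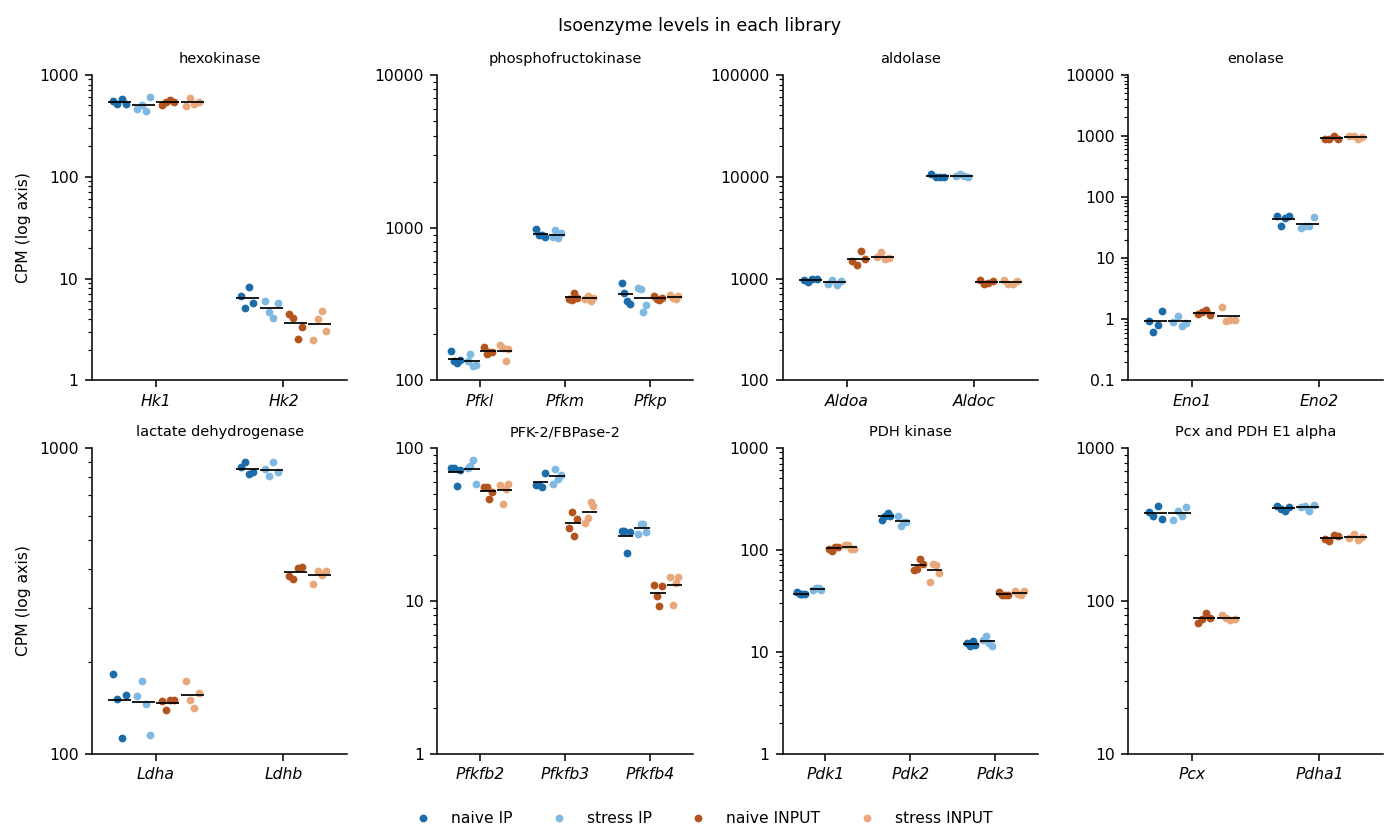
CPM (vertical axes, logarithmic) of the isoenzyme families, pyruvate carboxylase (Pcx) and the E1 alpha subunit of pyruvate dehydrogenase (Pdha1) in each of the 16 libraries, with 4 libraries and a bar at the mean per group. Aldoc, Pfkm, Ldhb, Pdk2 and Pcx sit higher in IP (blue) than in INPUT (brown), and Eno2, Pdk1 and Pdk3 lower, in naïve (dark) and in stressed (light) libraries.

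Pyruvate carboxylase, which adds a carboxyl group to pyruvate to make oxaloacetate, is a single gene. Pcx (chromosome 19, 4510472 to 4621752, plus strand, GRCm38) was at 378, 360.0, 414 and 343 CPM in naïve IP, with 71.7, 75.9, 83.0 and 77.4 CPM in naïve INPUT. In stressed mice it was at 336, 386, 357 and 409 CPM in IP and 80.1, 77.1, 74.5 and 76.0 CPM in INPUT. The IP values were all above the INPUT values, 4.84-fold in naïve mice (log2 ratio 2.28, SE 0.066, adjusted p = 8.4e-13, limma), which is below the range of the astrocyte markers. Of the 5 subunits of the pyruvate dehydrogenase complex, the competing route, 4 were higher in IP by less, namely Pdha1 (0.65), the subunit of E1 that the kinases phosphorylate, Pdhx (0.48), the E3-binding protein, Dlat (0.30), the E2 subunit, and Dld (0.21), the E3 subunit. The second E1 subunit, Pdhb, had a ratio of −0.25 (adjusted p = 0.011, limma) that turned to 0.39 after rescaling. Over all genes tested in naïve mice, 23.7% were higher in IP and 64.0% lower. The ratio of Pcx to Pdha1 within a library was 3.09 times as high in naïve IP as in naïve INPUT.

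The pyruvate dehydrogenase kinases, which switch the complex off, were split between the fractions. Pdk2 (chromosome 11, 95026258 to 95041371, minus strand, GRCm38) was at 195, 212, 227 and 213 CPM in naïve IP, 63.6, 64.3, 80.6 and 72.0 CPM in naïve INPUT, 214, 169.9, 189 and 188 CPM in stress IP and 48.4, 71.9, 71.3 and 58.6 CPM in stress INPUT. Pdk1 was at 38.6, 37.0, 36.4 and 36.7 CPM in naïve IP, 102, 98.0, 106 and 107 CPM in naïve INPUT, 40.3, 42.6, 41.8 and 40.5 CPM in stress IP and 111, 111, 101 and 102 CPM in stress INPUT. Pdk3 was at 12.3, 11.4, 12.7 and 11.7 CPM in naïve IP, 38.3, 35.9, 36.1 and 36.0 CPM in naïve INPUT, 13.0, 14.3, 12.2 and 11.3 CPM in stress IP and 39.2, 37.0, 36.2 and 39.4 CPM in stress INPUT. In none of the 3 did IP and INPUT overlap, and Pdk2 was on the IP side while Pdk1 and Pdk3 were on the INPUT side. The log2 ratios in naïve mice were 1.60 for Pdk2 (SE 0.078), −1.47 for Pdk1 (SE 0.055) and −1.60 for Pdk3 (SE 0.072), with a largest adjusted p of 8.6e-11 (limma). Pdk1 and Pdk3 also remained lower in IP after rescaling, at −0.82 and −0.96. The shares that follow leave out Pdk4, which was at 105 CPM in naïve IP, with 9.35 CPM in naïve INPUT, and is described with the other genes of these routes. Among the 3 member kinases, per kb of exon, Pdk2 made up 88.0% ± 0.831 in naïve IP and 45.6% ± 2.59 in naïve INPUT, Pdk1 6.72% ± 0.536 and 29.1% ± 0.873, and Pdk3 5.31% ± 0.344 and 25.4% ± 1.85 (SD, n = 4 each).

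In the TCA cycle, 6 of the 10 members were higher in naïve IP, 2 were lower and 2 did not pass, beside 23.7% higher and 64.0% lower among all genes. After rescaling, 9 were higher, 0 were lower and 1 did not pass. Cs, citrate synthase, which condenses acetyl-CoA with oxaloacetate, differed most (chromosome 10, 128337727 to 128362482, plus strand, GRCm38). It was at 790.3 to 814 CPM in naïve IP, with 256 to 290.2 CPM in naïve INPUT, a log2 ratio of 1.54 (SE 0.053, adjusted p = 4.6e-12, limma). Sdha, the catalytic subunit of succinate dehydrogenase, followed with 0.87, and Ogdh, the first subunit of the 2-oxoglutarate dehydrogenase complex, with 0.40. Sdhb, the iron-sulphur subunit, was at 0.31 and Fh1, fumarase, at 0.27.
The 3 subunits of NAD-dependent isocitrate dehydrogenase did not move as a unit. Idh3g was at 168 ± 6.15 CPM in naïve IP, with 131 ± 14.3 CPM in naïve INPUT (SD, n = 4 each, log2 ratio 0.36, adjusted p = 0.00035, limma). Idh3b was at 235 ± 24.8 and 235 ± 11.0 CPM (adjusted p = 0.98, limma, and 0.64 after rescaling, adjusted p = 4.6e-07). Idh3a, which carries the catalytic site, was at 132 ± 10.6 and 181 ± 12.0 CPM (−0.46, adjusted p = 2.5e-05, limma, and 0.19 after rescaling). Malate dehydrogenase has a cytosolic form, Mdh1, and a mitochondrial form, Mdh2. Mdh1 was at 247, 245, 228 and 231 CPM in naïve IP, with 406, 359, 429.9 and 385 CPM in naïve INPUT, with all IP values below all INPUT values (log2 ratio −0.73, adjusted p = 6.2e-08, limma, and −0.09 after rescaling, adjusted p = 0.18). Mdh2 was at 158, 158, 161 and 167 and 141, 157, 189 and 156 CPM, which overlapped (0.01, adjusted p = 0.87, limma, and 0.66 after rescaling, adjusted p = 6.8e-06).

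The ratio of 2 genes within 1 library hardly depends on how the library is scaled, and gene length drops out of its difference between fractions. Of 13 such pairs, all 13 differed between naïve IP and naïve INPUT without overlap (two-sided exact permutation test over 70 labelings, p = 0.029 each, the smallest that 4 against 4 allow). Among all genes, limma called 23.7% higher and 64.0% lower in naïve IP, but these are single genes and another test. Pairs of other genes were not tested, so how often they differ without overlap is not known. Several of the 13 pairs share a gene, so they are not independent. Over the 13 pairs and 4 comparisons, 52 tests were made, and the p-values are not adjusted. The largest difference was in Aldoc over Aldoa, whose log2 ratio was 3.38 ± 0.0671 in naïve IP and −0.74 ± 0.186 in naïve INPUT (SD, n = 4 each), a difference of 4.12 (SE 0.10). Eno1 over Eno2 was higher in IP by 3.91, with the uncertainty of Eno1 given above. Pdk3 over Pdk2 (−3.20) and Pdk1 over Pdk2 (−3.06) were lower in IP, so that their ratios were 9.16 and 8.36 times as high in INPUT. Pcx over Pdha1 was higher in IP by 1.63 and Ldhb over Ldha by 1.12, whereas Pfkl over Pfkm (−1.54) and Pfkp over Pfkm (−1.31) were lower.
Smaller differences were found in Pfkfb4 over Pfkfb2 (0.82), Hk2 over Hk1 (0.81), Mdh1 over Mdh2 (−0.74), Pfkfb3 over Pfkfb2 (0.50) and Pfkl over Pfkp (−0.23). In stressed mice, where limma called 23.6% of all single genes higher and 62.5% lower in IP, 11 of the 13 pairs did not overlap. Each of these had p = 0.029 in the same exact test. The exceptions were Pfkl over Pfkp (difference −0.20, exact permutation p = 0.11) and Pfkfb3 over Pfkfb2 (0.33, exact permutation p = 0.17). Whether the difference between the fractions itself changed with stress was not tested for these ratios.

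**Figure D4:**
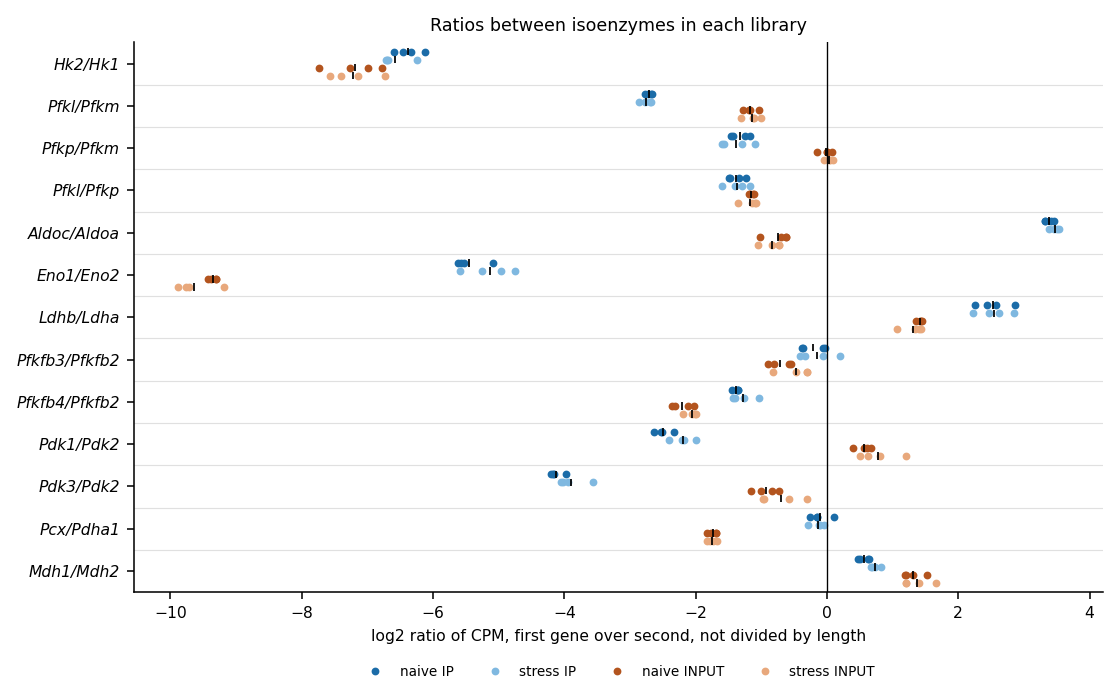
Log2 ratio of CPM between 2 genes within each library (horizontal axis, not divided by gene length) for the 13 pairs, with 4 libraries per group and a bar at each group's mean. IP (blue) and INPUT (brown) are apart for naïve mice in all 13 pairs, from 4.12 for Aldoc over Aldoa to −3.20 for Pdk3 over Pdk2. Stressed libraries (light) lie apart from naïve ones (dark) of the same fraction only for Mdh1 over Mdh2 in IP.

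Other genes of these routes were taken from a list of 56 symbols, 55 of them in the tables and 47 high enough to be tested in naïve mice. Of these, 27 were higher in IP, 15 were lower and 5 did not pass, with a median log2 ratio of 0.71, beside 23.7% higher and 64.0% lower among all genes. After rescaling, 34 were higher and 9 lower, with a median of 1.35. The 3 highest were Pdk4, another pyruvate dehydrogenase kinase (105 ± 5.60 against 9.35 ± 1.69 CPM, SD, n = 4 each, log2 ratio 3.49), Acss1, the mitochondrial acetyl-CoA synthetase (3.17), and Suclg2, the GDP-forming subunit of succinyl-CoA synthetase (3.15). The 3 lowest were Pgam2, the muscle phosphoglycerate mutase (−3.54, with 1 to 7 reads per library in naïve IP), Pdp1, a phosphatase that switches pyruvate dehydrogenase on (−3.41), and Got2, the mitochondrial aspartate aminotransferase (−2.91).

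The second question was whether the swim stress changed these mRNAs. In IP, 0 of the 38 members tested passed the threshold (limma, 12501 genes, 0.440% of all genes passed), and the smallest adjusted p was 0.52. In INPUT, 0 of 39 passed (limma, 13577 genes, 0.0442% of all genes), with a smallest adjusted p of 0.95. The count over all genes in INPUT, 6, was 32 without naïve INPUT replicate 14, 18 without stress INPUT replicate 9 and 1 or 2 without any other single library, while the members' count stayed at 0 with a smallest adjusted p of 0.43 (limma). Eno1 was below 1 CPM on average in IP and was not tested there. An unadjusted p under 0.05 was reached by 2 members in IP and 1 in INPUT, with limma on CPM and with limma-voom on the recovered reads alike, and no member passed the adjusted threshold with limma-voom, which called 49 genes in all in IP and 5 in INPUT. Over alternatives, the unadjusted member count ranged in IP from 0 (without stress IP replicate 5 or 6) to 6 (without stress IP replicate 15). In INPUT it ranged from 0 (without naïve INPUT replicate 16, or with no variance trend) to 3 (without stress INPUT replicate 9). Over all genes, 8.27% in IP and 5.03% in INPUT had an unadjusted p under 0.05. The 95% interval of the stress effect lay within 1.25-fold in either direction for 29 of the 38 members in IP and for 31 of the 39 in INPUT, and within 1.5-fold for 35 and 38. The intervals that reached beyond 1.5-fold were those of Hk2, Gapdh and Eno2 in IP and of Eno1 in INPUT.

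The single members with the smallest p-values moved little. Pdk1 in IP was at 38.6, 37.0, 36.4 and 36.7 CPM in naïve and 40.3, 42.6, 41.8 and 40.5 CPM in stressed mice, and all stress values lay above all naïve values. The log2 difference was 0.15 (95% interval 0.02 to 0.28, unadjusted p = 0.026, adjusted p = 0.52, limma). Mdh2 in IP was at 158, 158, 161 and 167 CPM in naïve and 147, 143, 146 and 154 CPM in stressed mice, with all stress values below, a log2 difference of −0.12 (95% interval −0.23 to −0.02, unadjusted p = 0.028, adjusted p = 0.54, limma). These were the 2 of 38 members whose stress and naïve values did not overlap in IP, where 5.00% of all genes did not overlap. In INPUT no member was without overlap, against 2.87% of all genes. Idh3g in INPUT was at 142, 115, 143 and 122 CPM in naïve and 158, 150.4, 144 and 138 CPM in stressed mice, overlapping ranges with a log2 difference of 0.18 (unadjusted p = 0.031, adjusted p = 0.95, limma).

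Several of the abundant enzymes gave narrow intervals in astrocyte RNA. For Aldoc the log2 difference between stress IP and naïve IP was 0.01 (95% interval −0.13 to 0.16), for Pfkm −0.01 (−0.15 to 0.12), for Pkm −0.03 (−0.15 to 0.09), for Ldhb −0.01 (−0.13 to 0.11) and for Pcx −0.01 (−0.17 to 0.16). Ldha was less precise, at −0.02 (−0.34 to 0.29). Medians of the stress effect in IP were −0.046 over the 16 glycolytic members tested, 0.13 over the 3 Pfkfb genes, 0.072 over the 9 members of pyruvate entry and −0.0056 over the 10 of the TCA cycle, beside −0.0036 over all genes. In INPUT these medians were 0.0085, 0.16, 0.016 and 0.0057, beside −0.0025 over all genes. Without naïve IP replicate 11, 0 members passed as well, while 0.976% of all genes did.

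Eno2 had the second largest difference in IP, −0.30 (95% interval −0.62 to 0.02, adjusted p = 0.65, limma). Stress IP replicates 4, 5 and 6 were between 30.9 and 33.3 CPM and replicate 15 was at 47.1 CPM, among the naïve values. The summed level of the 7 neuron markers was also lower on average, at 455 to 588 CPM in naïve IP and 364 to 536 CPM in stress IP, and replicate 15 was again the highest stress IP library. None of the 7 neuron markers passed the threshold for stress in IP, and their part in the difference of Eno2 was not tested. Of the stress comparisons in IP that left out 1 library, the one without replicate 15 gave the smallest adjusted p of a member, 0.14 for Eno2 (limma). Hk2 had the largest difference, −0.32 (−0.69 to 0.05, adjusted p = 0.68, limma), at levels of 4.11 to 8.19 CPM.

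The difference between the stress effects in IP and INPUT was tested over all 16 libraries. Of the 39 members, 0 passed the threshold (limma, 13341 genes, 0.0225% of all genes passed), and 2 had an unadjusted p under 0.05, beside 4.71% of all genes. These were Idh3g, with a difference of −0.21 (95% interval −0.42 to −0.01, unadjusted p = 0.042), and Eno2, with −0.36 (−0.71 to −0.01, unadjusted p = 0.043). For 21 members the interval lay within 1.25-fold in either direction and for 34 within 1.5-fold. Of the 13 isoenzyme ratios, Mdh1 over Mdh2 was the only one without overlap between stress and naïve in IP, higher by 0.17 after stress (exact permutation p = 0.029, not adjusted). This ratio holds Mdh2, whose own values did not overlap in IP, so it is not independent of that result. Pairs of other genes were not tested, and 5.00% of single genes did not overlap in IP. In INPUT none of the 13 was without overlap, and the smallest exact permutation p was 0.14. Of the other genes of these routes, 0 of 46 tested passed in IP and 0 of 47 in INPUT (limma). An unadjusted p under 0.05 was reached by 1 and 5 of them, beside 8.27% and 5.03% of all genes.

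**Figure D5:**
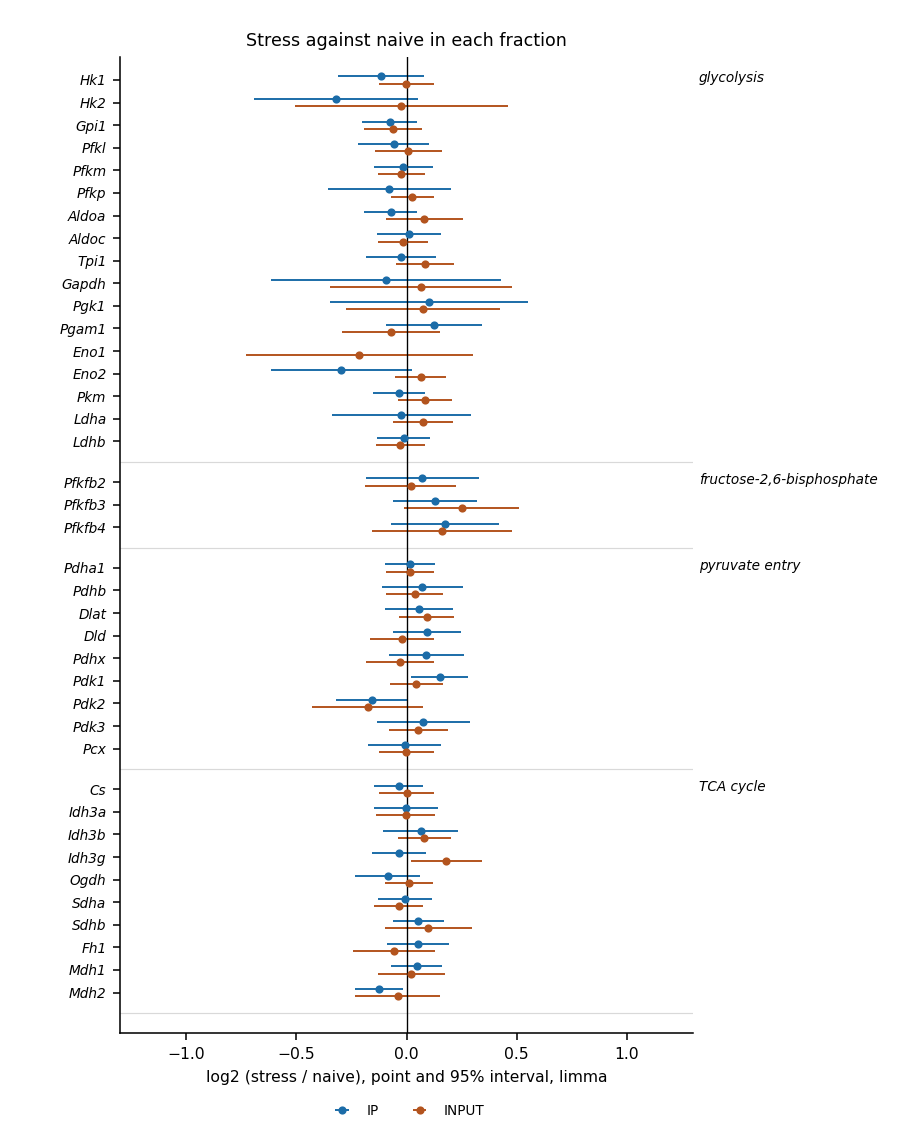
Log2 ratio of stress to naïve (horizontal axis) for the 39 enzymes in IP (blue) and INPUT (brown), with 95% intervals from limma and 4 libraries per group. The points lie between −0.32 and 0.25, and the intervals that leave out 0 are those of Pdk1 and Mdh2 in IP and Idh3g in INPUT. Eno1 has no point in IP.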

How the data were processed

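The authors depleted ribosomal RNA, sequenced read pairs, mapped them with STAR to mm10, used HTSeq to count uniquely mapped reads on RefSeq genes, and deposited 1 table of log2 CPM per library. Those deposited log2 values carry a small constant and no correction for gene length. They were turned back into CPM and reads. Of the values with lower counts, 100% were whole reads within 0.1 read. High counts, such as those of Aldoc, were rounded without this check. Groups were compared on log2(CPM + 0.1) with limma 3.58.1 (R 4.3.3; lmFit, eBayes with a variance trend), keeping genes whose mean over both groups exceeded 1 CPM and adjusting p-values by Benjamini-Hochberg over all of these. The fit was tested on simulated reads with changes larger than any stress effect of a member. It recovered 200 of 200 changed genes, with 15 false calls. How well it finds changes as small as those of the members was not tested. The study names 4 mice per group, with no sex given per library, and libraries were treated as independent. RefSeq positions and GENCODE M21 exon lengths and transcripts are on GRCm38. Values per kb use the union of exons unless stated. Members, pairs and lists were chosen with earlier results of these data known. Values per library were given for the isoenzyme families, Pcx, and members without overlap under stress. Of the other routes' genes, the 3 highest and 3 lowest ratios were named, and Mdh1 and Idh3g values were added after they were seen. Alternatives are given in the closing section. Intervals and read floors cover counting error or spread between these libraries only. Tables and figures used Python 3.11.15, pandas 2.3.3, SciPy 1.17.1 and matplotlib 3.10.9.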

Additional observations from a re-analysis of the deposited data

Results flagged for a closer look

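In each group of 4 libraries, the gap between the most extreme value and the next was divided by the range of the group and set against Dixon's 95% critical value for 4 values. Of 156 groups of 4 values (39 members in 4 groups), 9 were past it, and about 7.8 would be by chance alone. Naïve IP replicate 2 had 10548 CPM of Aldoc, with the rest of its group at 9915 to 9939.8 CPM. Naïve IP replicate 11 had 56.2 CPM of Pfkfb2 against 71.7 to 74.0 CPM, and 20.5 CPM of Pfkfb4 against 28.1 to 28.7 CPM. Naïve IP replicate 13 had 68.5 CPM of Pfkfb3 against 55.3 to 57.3 CPM. Stress IP replicate 15 had 47.1 CPM of Eno2 against 30.9 to 33.3 CPM, and 58.1 CPM of Pdhb against 63.8 to 64.6 CPM. In INPUT, naïve replicate 7 had 138 CPM of Ldha against 148 to 150.2 CPM, naïve replicate 3 had 38.3 CPM of Pdk3 against 35.9 to 36.1 CPM, and stress replicate 1 had 1.59 CPM of Eno1 against 0.940 to 0.993 CPM.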

How the results depend on the processing

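Alternatives were pseudocounts of 1 and 0.01 CPM, no filter, a minimum mean of 5 CPM, the rescaling described above, limma-voom on recovered reads, no variance trend, array weights, all 16 libraries in one model, and each library left out. The stress comparisons and their difference gave 0 members under every one of these. In IP the smallest adjusted p of a member ranged from 0.14 (without stress IP replicate 15) to 0.84 (without naïve IP replicate 13). Rescaling moved the counts between the fractions to 32 higher and 3 lower in naïve mice and 31 higher and 4 lower in stressed mice. It reversed Pfkl (0.48), Tpi1 (0.19), Gapdh (0.15), Pgam1 (0.25), Pkm (0.52), Pdhb (0.39) and Idh3a (0.19) in naïve mice, and Pfkl (0.40), Tpi1 (0.073), Pkm (0.39), Pdhb (0.41) and Idh3a (0.18) in stressed mice, as log2 ratios. It added calls of higher in IP for Hk1, Pfkp, Pgk1, Ldha, Idh3b and Mdh2 in both and for Pgam1 in stressed mice. These changes come from the moved centre. With each library left out, 30 to 32 members passed in naïve mice and 27 to 30 in stressed mice. The calls of 23 of 32 members in naïve and 22 of 31 in stressed mice did not change under any alternative. Of the others, Pkm and Pfkl in naïve mice and Gapdh, Idh3g, Hk2 and Pfkl in stressed mice lost the call under 5 to 9 alternatives, for which the cause was not tested. All 13 isoenzyme pairs were without overlap in naïve mice under every alternative run for them (2 pseudocounts and 8 libraries left out). No paired analysis was possible because the groups share no replicate numbers. Depth limits low members such as Hk2, Gapdh and Eno1.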

Other observations

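In other genes next to the TCA cycle, forms of 1 enzyme were also split between the fractions. They were picked after their values were seen, and the log2 ratios of IP to INPUT below are from limma in naïve mice, with the rescaled value in brackets where its sign differed. Succinyl-CoA synthetase can form GTP with Suclg2 or ATP with Sucla2. Suclg2 was at 107 ± 6.05 CPM in naïve IP, with 12.1 ± 1.58 CPM in naïve INPUT (SD, n = 4 each, 3.15, adjusted p = 6.8e-13, limma), and Sucla2 at 119 ± 8.01 and 168 ± 8.42 CPM (−0.49 [0.15]). The NADP-dependent isocitrate dehydrogenases Idh1, cytosolic, and Idh2, mitochondrial, had ratios of 2.41 and 2.92, beside −0.46 to 0.36 for the NAD-dependent subunits. Of the phosphatases that undo the pyruvate dehydrogenase kinases, Pdp2 was at 61.3 ± 4.19 and 14.8 ± 1.85 CPM (2.05) and Pdp1 at 28.8 ± 1.86 and 308 ± 18.1 CPM (−3.41).

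Genes of the shuttles that carry reducing equivalents from glycolysis into mitochondria were picked in the same way, and 64.0% of all genes were lower in IP. In the malate-aspartate shuttle, Got1 (−2.34), Got2 (−2.91) and the aspartate-glutamate carriers Slc25a12 (−1.75) and Slc25a13 (−1.22) were lower in IP. Mdh1 was too (−0.73), but not after rescaling (−0.09, adjusted p = 0.18, limma). Neither Mdh2 (0.01) nor the carrier Slc25a11 (−0.14 [0.50]) passed (adjusted p = 0.87 and 0.099, limma), and both were higher in IP after rescaling (adjusted p = 6.8e-06 and 6.2e-05, limma). In the glycerol phosphate shuttle, Gpd1 (174 ± 15.9 against 115 ± 1.96 CPM, 0.60) and Gpd2 (421 ± 10.6 against 144 ± 5.92 CPM, 1.55) were higher in IP. None of these genes passed the threshold for stress in either fraction (limma), and the smallest unadjusted p was 0.0013, for Pdp1 in INPUT (log2 difference 0.23, adjusted p = 0.33, limma).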
